A study of Mus musculus with 6 samples.

Results

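Rab GTPases were examined in the prefrontal cortex of aged mice after anesthesia and surgery. Members were the measured genes whose mouse symbol is Rab followed by a number and at most a letter and a digit, and which are protein-coding in GENCODE M21. This left out effectors and regulators whose names begin with Rab. The pattern took 56 of the 21006 gene identifiers measured, out of 59 such genes in GENCODE M21. Rab17, Rab25 and Rab44 were not analysed here.

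The PND group (n = 3), named for the postoperative neurocognitive disorder it models, underwent isoflurane anesthesia plus exploratory laparotomy, in which the abdomen is opened and its organs are inspected. The CON group (n = 3) had no anesthesia and no operation. All 6 animals were wild type male C57BL/6 mice with an age label of 18 months, although the sample titles carry the code 17M, and every sample was the prefrontal cortex of 1 animal. Both groups went through the open field, fear conditioning and Barnes maze tests, and both were given deep isoflurane and saline perfusion when the tissue was taken after the last maze session. The model therefore combines anesthesia and surgery, and the CON mice were without isoflurane only up to the collection of tissue. The measure was FPKM, in which the fragments of a gene are divided by its exon length and by the depth of the library, so that levels of different genes can be set side by side per length.

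Rab proteins are small GTPases that sit on the cytosolic face of membranes and mark organelles and transport vesicles. A guanine nucleotide exchange factor (GEF) loads a Rab with GTP, the loaded Rab recruits effectors that tether, move or fuse the vesicle, and a GTPase-activating protein (GAP) switches it off. In neurons different Rabs serve the ER and Golgi, synaptic vesicles, recycling endosomes and lysosomes. Rab12 acts between recycling endosomes and lysosomes, where it takes part in the degradation of the transferrin receptor and in autophagy. It is one of the Rabs phosphorylated by LRRK2, a kinase with mutations in familial Parkinson's disease. The question asked here was whether any other Rab followed Rab12, whose level was lower in PND.

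The conserved first nucleotide-binding loop, the P-loop, is shown for Rab12 and for the 4 Rab genes nearest to it in coding sequence, because reads of similar genes could be exchanged in counting. Each line gives 60 coding bases of the mouse gene, 5′ to 3′, from the GENCODE M21 transcripts on GRCm38, with the 24 bases that encode the P-loop in capitals.
Rab12: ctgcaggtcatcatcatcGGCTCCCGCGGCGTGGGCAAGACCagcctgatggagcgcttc
Rab8a: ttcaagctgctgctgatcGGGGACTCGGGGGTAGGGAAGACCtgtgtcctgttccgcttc
Rab8b: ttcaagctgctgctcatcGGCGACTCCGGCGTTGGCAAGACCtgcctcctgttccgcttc
Rab10: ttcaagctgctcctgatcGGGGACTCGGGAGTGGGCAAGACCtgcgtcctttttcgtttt
Rab13: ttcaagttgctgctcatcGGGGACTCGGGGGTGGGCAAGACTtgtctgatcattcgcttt
Of the 24 P-loop bases, 15 in Rab8a, 19 in Rab8b, 17 in Rab10 and 16 in Rab13 were the same as in Rab12. Over the whole aligned coding sequence the identity with Rab12 was 57.9% for Rab8a, 57.4% for Rab8b, 56.8% for Rab10 and 56.5% for Rab13, and it was lowest for Rab28, at 43.3%. Even so, no stretch of 31 bases in the transcripts of Rab12 occurred in a transcript of another gene, each read on its own strand. The gene (ENSMUSG00000023460) lies on the minus strand of chromosome 17, from 66494512 to 66519729 in GRCm38, and none of its exons overlapped an exon of another gene. Among the 56 members, 22 shared no such stretch with another gene, 7 shared more than 10% of theirs, and 20 had exons that overlapped those of another gene. Bases that lie opposite another gene were not counted as shared, so some of the 22, such as Rab24, still overlap a gene on the other strand.

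The libraries were of similar depth. Low FPKM moved in steps, from which 7210964 to 9384031 effective fragments per sample were estimated. FPKM summed over all genes ranged from 215640 to 240447, and the mitochondrial genes held 30.4% to 38.8% of the sum. The summed FPKM of the Rab genes ranged from 964.5 to 1030.1 in PND and from 966.2 to 1147.0 in CON, so the groups overlapped. Markers of neurons summed to 807 to 905 FPKM in PND and 845 to 936 in CON. Those of cortical excitatory neurons summed to 193 to 234 FPKM in PND and 182 to 300 in CON. Markers of the striatum, a neighbouring region, summed to 199 to 250 FPKM in PND and 130 to 334 in CON. The sums therefore do not show that the samples held cortex alone. The groups overlapped for all 12 marker lists of cell types and neighbouring regions, and in such bulk tissue fewer cells of a type and less RNA per cell cannot be told apart.

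Rab genes covered a wide range of levels. Of the 56 members, 42 averaged 1 FPKM or more over the 6 samples and 11 a mean between 0.1 and 1 FPKM. Rab19, Rab20 and Rab7b lay below 0.1 FPKM and were not tested. Rab6b, which serves retrograde transport to the Golgi and is enriched in neurons, had the highest mean, 151 ± 5.08 FPKM in PND and 139.5 ± 19.7 in CON (SD, n = 3 for each). Rab3c of the synaptic vesicle followed with 113 ± 1.62 and 111 ± 10.6 FPKM. Rab5a, the early endosome Rab, had 68.0 ± 3.30 and 68.5 ± 10.4 FPKM. Each of these 3 differed between groups by less than the spread within CON.

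Among the other abundant members, Rab18 of the ER and lipid droplets had 56.6 ± 2.08 FPKM in PND and 62.2 ± 6.41 in CON. Rab10, which acts in exocytosis and recycling, had 59.5 ± 4.62 and 58.1 ± 11.0 FPKM. Rab21 of early endosomes had 37.9 ± 7.06 and 37.2 ± 17.1 FPKM. The 2 groups overlapped for each of them, though without CON replicate 1 Rab21 had a log2 fold change of 0.45 with an unadjusted p of 0.0428 by limma. Rab39b, mutated in an X-linked intellectual disability, had 29.1 ± 2.46 and 29.8 ± 2.33 FPKM, and Rab5b, a second Rab5 paralog of early endosomes, had 29.4 ± 4.42 and 29.5 ± 5.59 FPKM. Neither differed by more than its SD, while 11.8% of the stretches of 31 bases in Rab5b were shared with another gene.

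**Figure D1:**
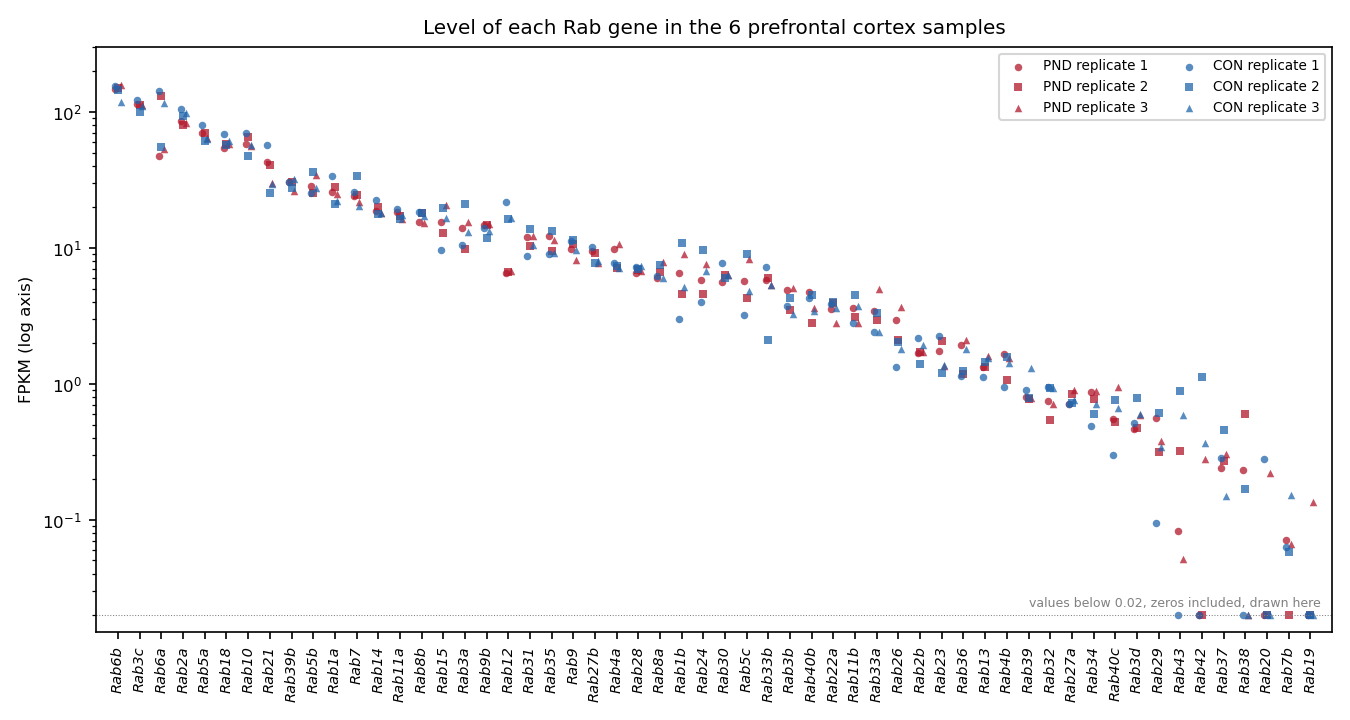
FPKM on a log axis for each of the 56 Rab genes, ordered by mean, with 1 point per sample (red for PND, blue for CON, shape for the replicate number). Rab12 stands out with its 3 PND points together below its 3 CON points, while the points of most other genes are mixed. Values below 0.02 are drawn on the dotted line.

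Rab12 was lower in all 3 PND samples. It measured 6.56, 6.64 and 6.77 FPKM in PND replicates 1 to 3 and 21.8, 16.3 and 16.6 FPKM in CON replicates 1 to 3. The groups were far apart, and the 3 PND values were almost the same. The group means were 6.66 ± 0.105 and 18.2 ± 3.11 FPKM (SD, n = 3), the CON mean being 2.74 times the PND mean. On the scale of log2(FPKM + 0.1), on which all fold changes here are given, the difference between PND and CON was -1.43 (SE 0.14, 95% interval -1.77 to -1.09). The family was proposed because Rab12 had this low level, so the value is a description. Its adjusted p by limma over all genes was 0.103, which did not reach 0.05.

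Rab12 was measured on a moderate number of fragments. The estimates were 176, 159 and 193 fragments in PND and 495, 403 and 362 in CON. Exact Poisson 95% intervals for counting error alone were 5.63 to 7.60, 5.65 to 7.76 and 5.84 to 7.79 FPKM in PND, while the lowest of the CON intervals began at 14.8 FPKM. The coefficient of variation was 1.57% among the PND values, below the 7.20% to 7.93% that counting alone would give, and 17.1% among the CON values, above their 4.49% to 5.26%. Rab12 made up 0.675% of the summed Rab FPKM in PND and 1.77% in CON.

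No other Rab gene passed the study's cut-off, an absolute log2 fold change above 1 with an unadjusted p below 0.05 (limma). Over all 18185 genes tested 1.33% passed it, 0.484% lower and 0.841% higher in PND. Of the 53 Rab genes tested, Rab12 alone passed, and 0 of the other 52 did. Apart from Rab12, an unadjusted p below 0.05 was found for 2 of 52 Rab genes, Rab2a and Rab26, or 3.85%, close to the 3.13% of all genes. An adjusted p below 0.05 was found for none of the 53 and for 0.011% of all genes. The median log2 fold change of the tested Rab genes was 0.03, and that of all genes was 0.01. Without Rab12 the estimates were split, with 24 below 0 and 28 above.

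A missed threshold does not show that a gene was level, so the intervals were read as well. Of the 52 other Rab genes, 48 had a 95% interval that lay wholly above a log2 fold change of -1, beside 78.6% of all genes. The exceptions were Rab42, Rab43, Rab6a and Rab32. The interval lay above the Rab12 estimate itself in 49 of the 52, all but Rab42, Rab43 and Rab6a. Among the 41 others with at least 1 FPKM, 40 had an interval above -1, beside 90.9% of all genes at that level, and 35 had one within -1 to 1. A tighter range of -0.5 to 0.5 held the interval of only 16 of the 41. The estimate was smaller than 0.5 in size for 40 of the 41, beside 94.1% of all genes at that level.

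**Figure D2:**
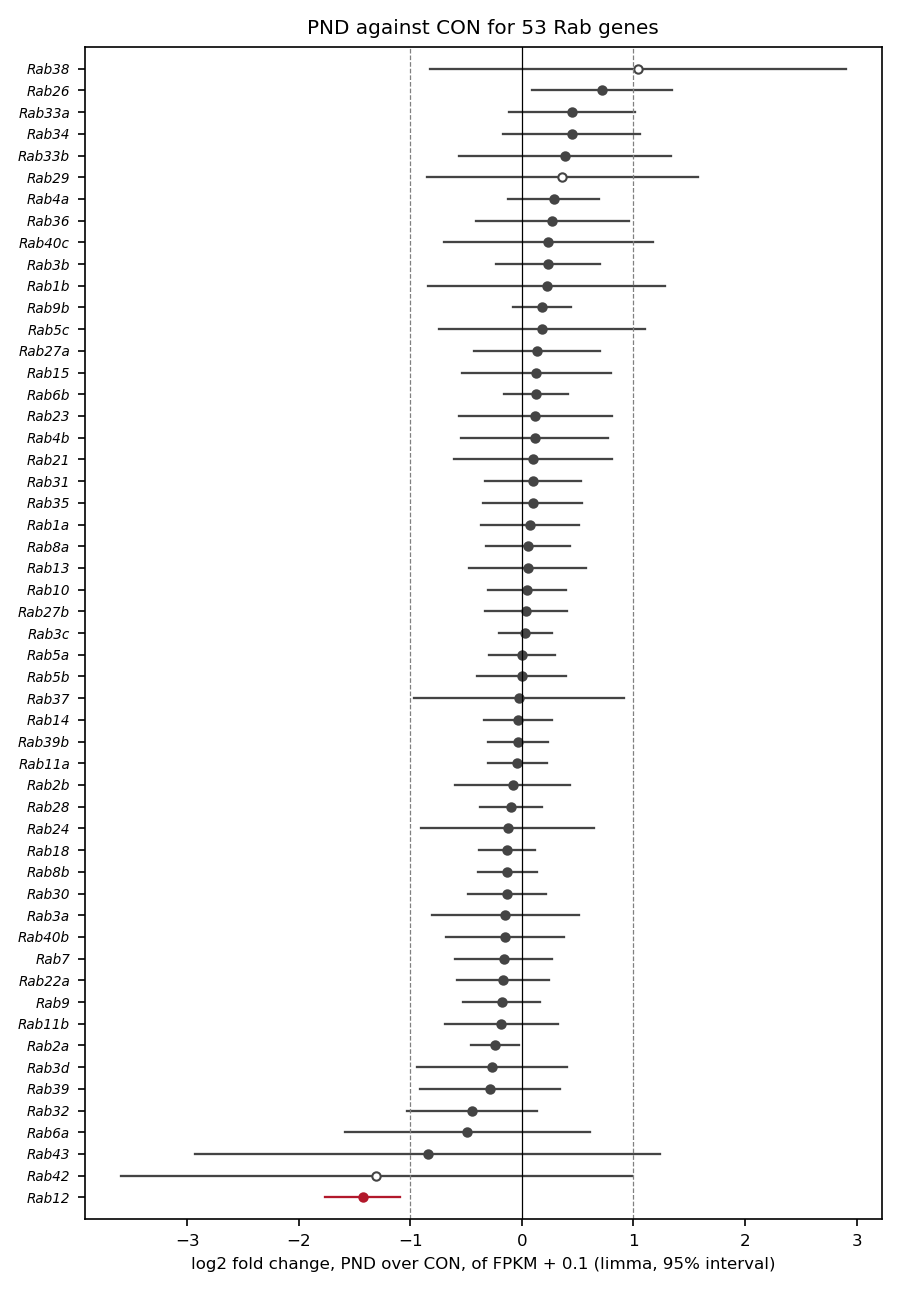
Log2 fold change of PND over CON with its 95% interval (limma) for the 53 Rab genes tested, in order of the estimate, with dashed lines at -1 and 1. Rab12 in red has the lowest estimate and an interval wholly below -1. Open circles mark the 3 genes with under 60 estimated fragments over all 6 samples.

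Apart from Rab12, groups that did not overlap were found for 6 of 52 Rab genes, or 11.5%, beside 7.66% of all genes. PND lay below CON in Rab2a, Rab28 and Rab32 and above it in Rab26, Rab9b and Rab34. With an absolute log2 fold change of at least 0.5 asked for as well, Rab26 was the 1 of the 52, beside 3.5% of all genes.

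Rab2a, which controls traffic between the ER and the Golgi, came nearest to the pattern of Rab12. It measured 86.0, 80.5 and 82.5 FPKM in PND and 104, 92.6 and 98.3 FPKM in CON, so every PND value lay below every CON value. The group means were 83.0 ± 2.78 and 98.3 ± 5.76 FPKM (SD, n = 3), and, as in Rab12, CON replicate 1 held the highest value. The difference was small, -0.24 (SE 0.09, 95% interval -0.46 to -0.03) with an unadjusted p of 0.0316 by limma. The log2 fold change of Rab12 was 5.87 times that of Rab2a. Of the stretches of 31 bases in Rab2a, 10.7% were shared with the gene model Gm5865. The unadjusted p of Rab2a stayed below 0.05 in 7 of 16 other settings, over which it ranged from 0.0159 to 0.124.

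Likeness to Rab12 was measured as the Pearson r of the log2 values over the 6 samples, for genes averaging 1 FPKM or more. All genes share the same 6 libraries and their base composition, and a gene with any gap between the groups gains a high r, whatever its size. Rab2a had an r of 0.949, the rank 17 of 12386 genes, and Rab28 an r of 0.832, the rank 197. These were the 2 of the 41 other Rab genes that reached 0.8, beside 2.23% of all genes. The sign was mixed over the family, with 22 of the 41 above 0. The genes with the highest r of all were Ctsc, Gm9797, Ccdc115, Pdia3 and Ppp2r3c. Of these Ccdc115, a factor in the assembly of the proton pump of lysosomes and other acidic organelles, measured 0.940, 0.841 and 1.48 FPKM in PND and 5.51, 4.56 and 4.82 in CON, a log2 fold change of -2.13. Ctsc, a lysosomal peptidase with an r of 0.986, had a log2 fold change of -0.24. Gm9797 lay at 4.30 to 4.82 FPKM in PND and 6.54 to 7.00 in CON. Pdia3 lay at 46.1 to 47.5 FPKM in PND and 54.2 to 56.7 in CON, and Ppp2r3c at 6.70 to 7.02 and 8.59 to 9.48. Whether the 5 genes share a function was not tested.

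Rab28, a Rab of the cilium and of photoreceptors, measured 6.47, 6.90 and 6.76 FPKM in PND and 7.25, 6.99 and 7.37 in CON. The groups were apart by a narrow margin, and the log2 fold change was -0.10 (95% interval -0.38 to 0.18). After a correction for GC content this became -0.03 and r became -0.03, and r was 0.641 after quantile normalization and 0.79 without CON replicate 1, so the likeness of Rab28 depended on the processing. For Rab2a the same values of r were 0.92, 0.941 and 0.922. Rab28 has the lowest transcript GC content of the members with at least 1 FPKM, 36.8%.

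Rab18, Rab8b and Rab30 had the next highest r, 0.72, 0.659 and 0.628. Rab18 measured 54.2, 58.0 and 57.5 FPKM in PND and 69.2, 56.7 and 60.6 in CON. Rab30, a Golgi Rab, measured 5.55, 6.27 and 6.30 FPKM in PND and 7.67, 6.03 and 6.31 in CON. In both genes CON replicate 1 was the highest sample and the rest overlapped. With 1 sample left out, r ranged from 0.506 (without CON replicate 1) to 0.889 (without CON replicate 2) for Rab18, from 0.245 to 0.773 without the same 2 samples for Rab30, and from 0.538 (without CON replicate 1) to 0.98 (without PND replicate 2) for Rab8b. After the GC correction r was 0.534 for Rab18, 0.377 for Rab30 and 0.339 for Rab8b. The log2 fold change was -0.13 (95% interval -0.38 to 0.12) for Rab18 and -0.14 (95% interval -0.48 to 0.21) for Rab30.

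Rab26, a Rab of secretory and synaptic vesicles, ran opposite to Rab12 with an r of -0.83. It measured 2.96, 2.09 and 3.69 FPKM in PND and 1.32, 2.02 and 1.79 in CON. All PND values lay above the CON values, but PND replicate 2 exceeded CON replicate 2 only narrowly. The log2 fold change was 0.72 (SE 0.27, 95% interval 0.09 to 1.35) with an unadjusted p of 0.0306 by limma, which ranged from 0.00439 to 0.113 over 16 other settings and was below 0.05 in 11 of them. Part of the Rab26 exons, 294 bases, overlapped exons of Traf7 on the same strand or of AC132367.1 on the opposite one, and 7.28% of its stretches of 31 bases were shared with Traf7, so its level is less certain.

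The next lowest r belonged to Rab9b, Rab33a, Rab4a and Rab3b, with -0.694, -0.672, -0.579 and -0.493. Rab9b, which returns receptors from late endosomes to the Golgi, measured 14.7, 14.6 and 14.96 FPKM in PND and 13.9, 11.9 and 13.3 in CON, with no overlap. Rab33a, a vesicle Rab of growing axons, measured 3.42, 2.95 and 4.97 FPKM in PND and 2.42, 3.29 and 2.40 in CON. Rab4a, of the fast recycling endosome, measured 9.72, 7.06 and 10.7 FPKM in PND and 7.71, 7.28 and 7.13 in CON. In the last 2 genes PND replicate 2 lay within or below the CON values. The log2 fold changes were 0.18 (95% interval -0.08 to 0.44) for Rab9b, 0.45 (95% interval -0.12 to 1.02) for Rab33a and 0.29 (95% interval -0.12 to 0.69) for Rab4a. None of the 3 passed an unadjusted p of 0.05, but after the GC correction Rab33a had 0.39 with an unadjusted p of 0.047 by limma. PND replicate 2 bore on some of these values. Without it r was -0.914 for Rab4a and -0.845 for Rab3b, and the log2 fold change of Rab4a was 0.46 with an unadjusted p of 0.0172 by limma.

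**Figure D3:**
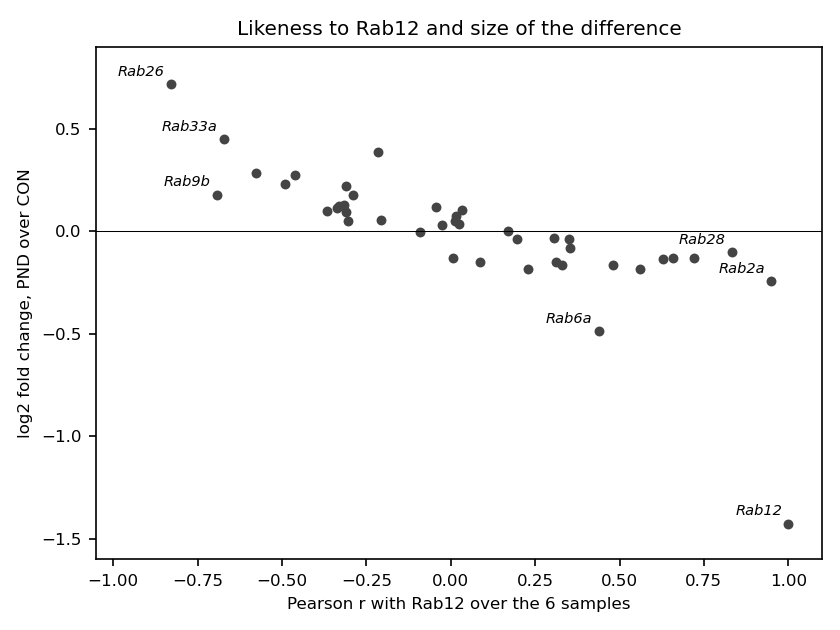
Log2 fold change of PND over CON against the Pearson r with Rab12 over the 6 samples, 1 point per Rab gene averaging 1 FPKM or more. Rab2a lies nearest to Rab12 on the horizontal axis, at 0.949, but its log2 fold change is -0.24 and that of Rab12 is -1.43.

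The Rabs that LRRK2 phosphorylates formed a group of 11 tested genes. Rab12, for which the family was proposed, was the 1 past the cut-off, beside 1.33% of all genes, and the median log2 fold change was 0.03. Rab8a, which serves exocytosis and the primary cilium, measured 5.99, 6.58 and 7.88 FPKM in PND and 6.22, 7.46 and 5.96 in CON. Rab8b, its close paralog, measured 15.5, 18.0 and 15.3 FPKM in PND and 18.3, 17.9 and 17.2 in CON. Rab10 measured 57.8, 64.8 and 56.0 FPKM in PND and 69.5, 47.7 and 57.2 in CON. The groups overlapped in each of these 3. The log2 fold changes were 0.05 (95% interval -0.32 to 0.43) for Rab8a, -0.13 (95% interval -0.40 to 0.13) for Rab8b and 0.05 (95% interval -0.30 to 0.40) for Rab10. Rab13, also near Rab12 in coding sequence but not of this group, had 0.05 (95% interval -0.47 to 0.58). A difference of the size of Rab12 lay outside all 4 intervals.

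The Rab3 genes of this group drive the release of synaptic vesicles and hormones. Rab3c measured 115, 112 and 112 FPKM in PND and 122, 100.5 and 109.7 in CON. Rab3a measured 14.01, 9.76 and 15.5 FPKM in PND and 10.5, 21.1 and 13.1 in CON. Rab3b measured 4.91, 3.46 and 5.03 FPKM in PND and 3.75, 4.24 and 3.28 in CON. Values of the groups were mixed in all 3, and relative to its mean Rab3a varied most within CON. Rab3d, the lowest of them, measured 0.463, 0.473 and 0.586 FPKM in PND and 0.515, 0.790 and 0.602 in CON. The 95% intervals were -0.20 to 0.27 for Rab3c, -0.81 to 0.51 for Rab3a, -0.24 to 0.70 for Rab3b and -0.94 to 0.41 for Rab3d, each above -1.

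The other LRRK2 substrates were Rab35, Rab29 and Rab43. Rab35, which recycles cargo to the plasma membrane, measured 12.3, 9.54 and 11.4 FPKM in PND and 8.92, 13.3 and 9.21 in CON, a log2 fold change of 0.10 (95% interval -0.35 to 0.54). Rab29, which can recruit LRRK2 to Golgi and lysosomal membranes, measured 0.559, 0.313 and 0.376 FPKM in PND and 0.0942, 0.607 and 0.344 in CON, on only 28.0 fragments in all. Rab43, a Golgi Rab, measured 0.0823, 0.322 and 0.0517 FPKM in PND and was listed at 0, 0.878 and 0.590 FPKM in CON. For these 2 the intervals were wide, -0.85 to 1.58 for Rab29 and -2.93 to 1.24 for Rab43, and 74.8% of the stretches of 31 bases in Rab43 were shared with Gm45140. The CON values of Rab43 spread from 0 to 0.878 FPKM, and without CON replicate 1, the sample at 0, its log2 fold change was -1.86 with an unadjusted p of 0.0137 by limma.

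**Figure D4:**
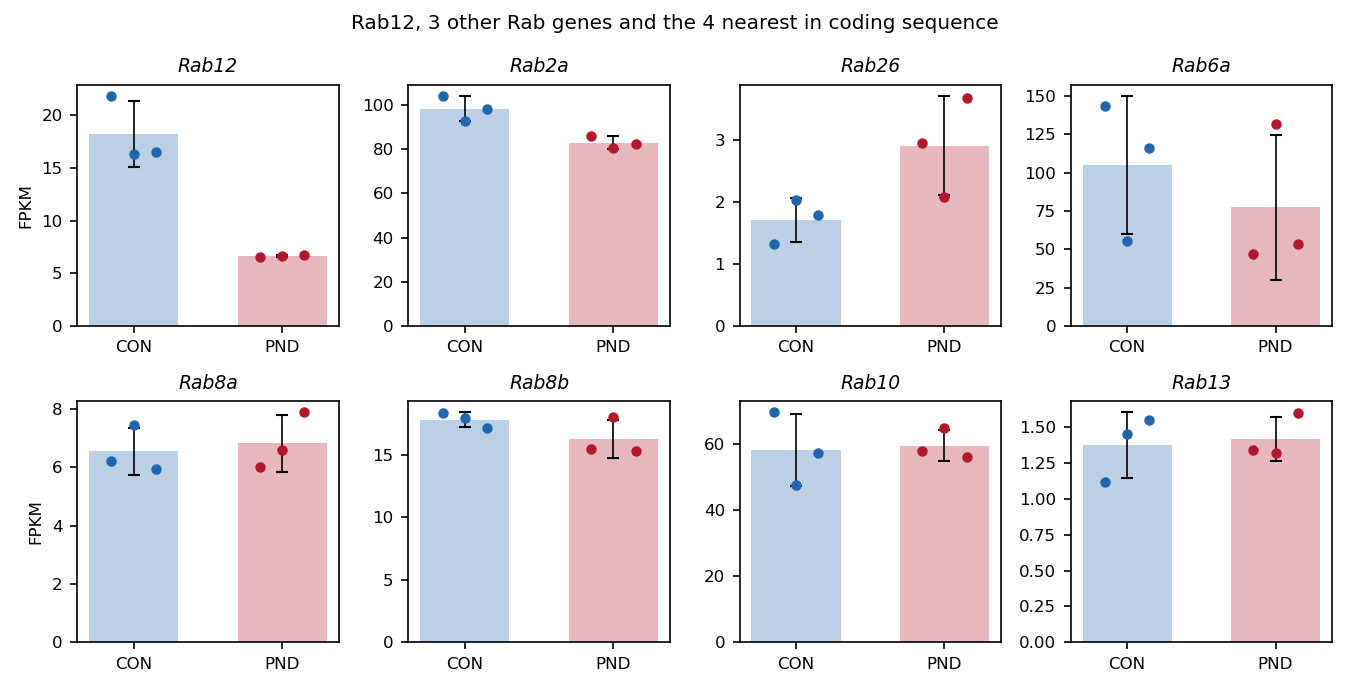
FPKM of Rab12, of Rab2a, Rab26 and Rab6a, and of the 4 Rab genes nearest to Rab12 in coding sequence, with points for the 3 samples, bars for the group mean and error bars for the SD. Only in the panels of Rab12, Rab2a and Rab26 are the CON and PND points apart, and the panel of Rab6a shows values near 50 and values above 115 in both groups.

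By place of action, the Rab genes of the late endosome, lysosome and autophagy numbered 11, of which 10 were tested. Rab12, for which the family was proposed, was the 1 past the cut-off, beside 1.33% of all genes, and 7 of the 10 intervals did not reach below -1, beside 78.6% of all genes. Their log2 fold changes ran from -1.43 to 1.04 with a median of -0.15. Summed over the list, the level was 61.3 to 63.3 FPKM in PND and 69.0 to 86.5 in CON. With Rab12 left out of the sum it was 54.5 to 56.7 FPKM in PND and 52.5 to 70.2 in CON, and the groups overlapped. Rab7, the main late endosome Rab, had a log2 fold change of -0.16 (95% interval -0.60 to 0.27), and Rab9 had -0.18 (95% interval -0.53 to 0.16). Rab24, an autophagy Rab, had -0.13 (95% interval -0.90 to 0.64). Of the stretches of 31 bases, 16.3% in Rab7 and 12.0% in Rab9 were shared with other genes, and 1258 bases of Rab24 exons lay opposite Prelid1.

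Rab9b of this list, described above with no overlap and PND higher, had 0.18. The remaining tested members, Rab29, Rab32, Rab34, Rab38 and Rab42, were scarce. Rab32, a Rab of lysosome-related organelles, measured 0.751, 0.540 and 0.707 FPKM in PND and 0.949, 0.931 and 0.923 in CON, with no overlap, a log2 fold change of -0.44 (95% interval -1.03 to 0.14) and an r with Rab12 of 0.86 on 91.0 fragments in all. Rab34, which positions lysosomes, measured 0.873, 0.772 and 0.888 FPKM in PND and 0.488, 0.599 and 0.707 in CON, the reverse order. Rab32 and Rab34 were therefore apart in opposite directions, each at under 1 FPKM and neither past an unadjusted p of 0.05. Rab38 was listed at 0.231, 0.602 and 0 FPKM in PND and 0, 0.167 and 0 in CON, and Rab42 at 0, 0 and 0.280 in PND and 0, 1.13 and 0.365 in CON. They rested on 12.8 and 11.0 fragments over all samples, so their fitted fold changes depend on the pseudocount and allow no statement on direction.

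Of the 15 ER and Golgi Rab genes, 14 were tested and none passed the cut-off. The median log2 fold change was -0.06, and 12 of the 14 intervals lay above -1. Of the 16 tested Rab genes of the early and recycling endosome none passed, and their range was narrow, from -0.18 for Rab11b to 0.29 for Rab4a. All 16 had an interval above -1. Of the 9 Rab genes of synaptic and regulated secretion none passed, the range ran from -0.26 for Rab3d to 0.72 for Rab26, and again all 9 intervals lay above -1. The remaining 4, Rab23, Rab28, Rab40b and Rab40c, ran from -0.15 to 0.24 with all 4 intervals above -1. Over all genes 1.33% passed the cut-off and 78.6% had an interval above -1, so 0 calls in lists of 4 to 16 genes sets none of them apart. The summed levels of these 4 lists overlapped between the groups.

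Rab6a of the Golgi varied more than its groups did. It measured 47.0, 132 and 53.5 FPKM in PND and 143, 55.1 and 116 in CON, values singled out after they were seen. The samples took either a low level, from 47.0 to 55.1 FPKM in PND replicates 1 and 3 and CON replicate 2, or a high one, from 116 to 143 FPKM in PND replicate 2 and CON replicates 1 and 3, and nothing lay between. Across this gap the lowest high value was 2.10 times the highest low one. For Rab12 the same ratio was 2.41, and there the gap fell between the groups. The group means were 77.4 ± 47.2 FPKM in PND and 105 ± 45.2 in CON (SD, n = 3), and the log2 fold change was -0.49 (95% interval -1.59 to 0.61). With 1 sample left out it ranged from -0.95 without PND replicate 2, with an unadjusted p of 0.0479 by limma, to -0.21 without CON replicate 1, so single samples decided its size. Its exons overlapped those of Mrpl48 on the opposite strand over 708 bases. In Rab33b, a Golgi Rab with a role in autophagy, CON replicate 2 stood alone at 2.09 FPKM, while the other 5 samples lay from 5.30 to 7.19. Rab6a and Rab33b were the 2 of the 41 Rab genes other than Rab12, or 4.88%, in which neighbouring samples were more than 1 apart on the log2 scale, close to the 4.42% of all genes with at least 1 FPKM.

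Base composition moved with the sample rather than with the group. Over the 42 Rab genes with at least 1 FPKM, the Spearman rho between GC content and deviation from the gene mean was 0.372, -0.668 and 0.642 in PND replicates 1 to 3 and -0.706, 0.548 and -0.181 in CON replicates 1 to 3. These are correlations across genes of 1 library, which are not independent replicates. The GC-rich Rab1b, an ER to Golgi Rab, ranged from 2.98 FPKM in CON replicate 1 to 10.8 in CON replicate 2. Rab12, with a GC content of 48.9%, was low in all 3 PND samples, in which rho was 0.372, -0.668 and 0.642. The low samples of Rab6a were those in which rho was above 0. The part of base composition in the level of either gene was not tested.

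**Figure D5:**
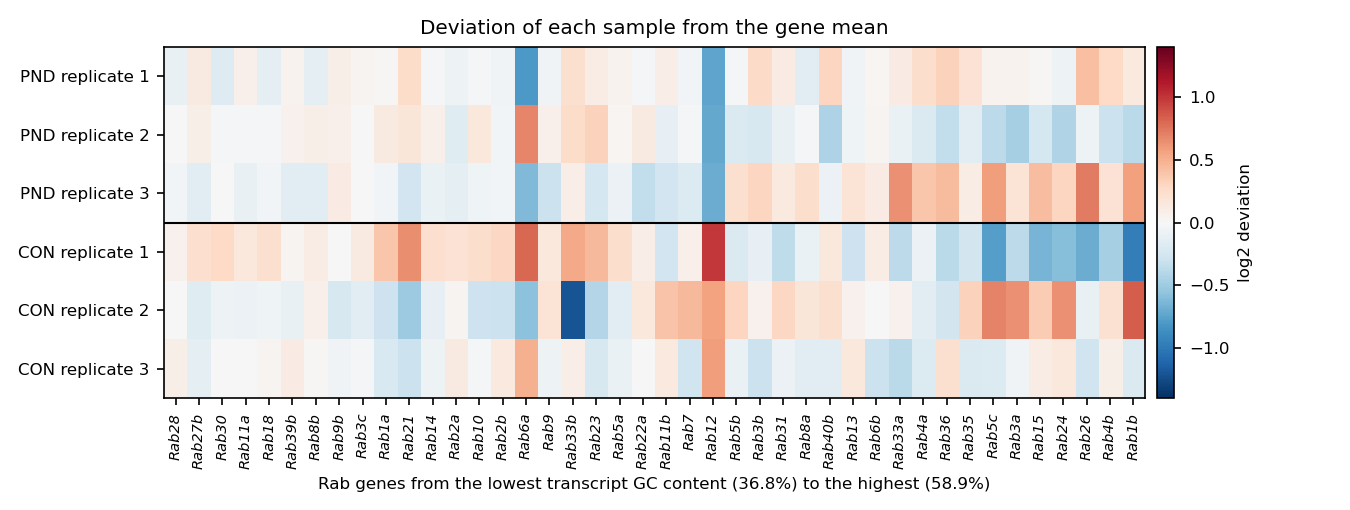
Log2 deviation of each of the 6 samples from the gene mean for the 42 Rab genes with at least 1 FPKM, in order of transcript GC content. The Rab12 column is blue in all 3 PND rows and red in all 3 CON rows, while the GC-rich genes at the right are red in some samples of both groups and blue in others.

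The regulators and effectors of Rab proteins gave no call either. Of the 159 genes listed, 149 were tested and 0 passed the cut-off, beside 1.33% of all genes. An unadjusted p below 0.05 (limma) was found for 1, Rin2, a GEF of Rab5, beside 3.13% of all genes. Rin2 measured 7.24, 7.39 and 8.33 FPKM in PND and 5.19, 6.85 and 5.32 in CON, with no overlap, a log2 fold change of 0.40 and an unadjusted p of 0.0346. By class, 0 of 8 genes of prenylation and membrane extraction, 0 of 48 GEFs, 0 of 34 GAPs and 0 of 60 effectors passed (Dennd5a is in both of the classes GEF and effector), with medians of -0.09, 0.04, -0.02 and -0.01. Rabac1, a prenylated Rab acceptor, had the lowest estimate of the 149, -0.88, with an interval of -2.08 to 0.33.

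None of the 13 genes listed as partners of Rab12 or LRRK2, with cargo of Rab12 included, passed the cut-off. Lrrk2 itself measured 15.5, 16.7 and 18.0 FPKM in PND and 14.8, 16.02 and 20.4 in CON, a log2 fold change of -0.02 (95% interval -0.36 to 0.33). Dennd3, the GEF of Rab12, measured 0.444, 0.248 and 0.418 FPKM in PND and 0.370, 0.411 and 0.402 in CON, a difference of -0.10 (95% interval -0.86 to 0.66). The groups overlapped in both. Ppm1h, the phosphatase that removes the LRRK2 mark from Rabs, had -0.01 (95% interval -0.42 to 0.40). The transferrin receptor Tfrc had 0.03 (95% interval -0.39 to 0.45), and the amino acid transporter Slc36a4, another protein degraded through Rab12, had -0.31 (95% interval -0.91 to 0.29). For the 13 such genes the estimates ran from -0.31 to 0.24, and all 13 intervals lay above -1, beside 1.33% of all genes past the cut-off and 78.6% with an interval above -1.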

How the data were processed

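RNA of 6 prefrontal cortex samples was sequenced after removal of ribosomal RNA. The authors filtered reads with Seqtk, aligned them with HISAT2, counted fragments with StringTie, scaled by TMM and deposited FPKM, 1 value per gene and sample. The methods state neither genome build nor use of strand, so fragments of overlapping or copied genes may be misassigned. The submitters' processing notes also name mm8, mm9 and Bowtie 0.12.2 without a role. Symbols were matched for 20866 of 21006 identifiers, and coordinates, lengths and sequences are from GENCODE M21 (GRCm38).

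Groups were compared with limma 3.58.1 (R 4.3.3, eBayes with trend) on log2(FPKM + 0.1), which understates changes of low genes, over 18185 genes averaging 0.1 FPKM or more. Adjusted p-values are Benjamini-Hochberg, two-sided, over all of these. The tests set the difference between groups against the spread between separate animals, with the variance of each gene drawn toward that of genes of similar level. Fragments were estimated from steps in the low values, and 41.6% to 44.8% of these came within 0.05 of whole fragments, where 10% would if there were no steps. On simulated data with a fixed dispersion of 0.02 and no GC shifts between samples, 178 of 194 genes changed 4-fold were recovered. At 1 FPKM or more, 127 of 127 were recovered. Among 17800 genes tested there, 187 unchanged ones were called, beside 241 of 18185 genes called in the real data. Power for smaller changes, or with GC shifts as in these samples, was not tested.

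Members and lists were chosen with earlier results of these data known. Per-sample values are given for Rab12, members past the cut-off, members without overlap and an absolute log2 fold change of at least 0.5, the 5 highest and 5 lowest r, and LRRK2 substrates; the 10 most abundant members are given as means, the 5 genes with the highest r are named, and partners of Rab12 and LRRK2 are reported. Other per-sample values (Rab6a, Rab32, Rab33b, Rab34, Rab38, Rab42, Rab1b, Rin2, Ccdc115, Lrrk2, Dennd3) were chosen after being seen.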

Additional observations from a re-analysis of the deposited data

How the results depend on the processing

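Rab12 stayed past the cut-off in all 16 alternatives, with log2 fold changes of -1.50 to -1.29, while its adjusted p (limma) ranged from 0.0544 to 0.921, so it passed 0.05 in none. The count of Rab genes past the cut-off was 1 in the 10 alternatives that kept all samples and 1 to 3 with 1 sample left out. Without PND replicate 3 it was 2, with Rab38 added, and without CON replicate 1 it was 3, with Rab42 and Rab43 added. These 3 genes rest on few or shared fragments. The count of regulators and effectors past the cut-off was 1 with no filter (Rph3al) and 0 to 1 with 1 sample left out (Rin3 without CON replicate 2). The number of other Rab genes with an r of at least 0.8 was 1 under quantile normalization, 1 under GC correction and 1 to 4 with 1 sample left out, being 1 without CON replicate 1 and 4 without CON replicate 2. The number with an interval above -1 was 40 to 50 in the alternatives that kept all samples, the 40 being of 41 genes, and 39 to 47 with 1 sample left out. Fold changes with 1 sample left out were compared for the 24 Rab genes other than Rab12 that the rules above selected. This count did not cover others given in the text, such as Rab7, Rab24 or Rab32. Of the 24, 21 moved by over 1.5 times or changed sign, all but Rab2a, Rab26 and Rab28. The sign changed in 10 (Rab10 from -0.09 to 0.19, Rab35 from -0.01 to 0.28), so the direction of these 10 is not settled. Rab18 and Rab30 went to -0.05 and -0.03 without CON replicate 1, and Rab33a to 0.24 without PND replicate 3. Against the spread between replicates, 379 of 381 values moved by less than 1 SD, and Rab28 under GC correction, with or without the block, went to -0.03. The count over all genes was 241, but 25 when the pseudocount was 1, 59 among genes averaging 1 FPKM or more, and 235 to 388 with 1 sample left out (388 without CON replicate 2).

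The samples carry replicate numbers 1 to 3 in both groups. Deviations of same-numbered samples correlated with r of -0.05, -0.45 and 0.03 across genes. Differently numbered samples ranged from -0.42 (PND replicate 3 with CON replicate 1) to 0.43 (PND replicate 2 with CON replicate 1). The check cannot settle whether the numbers stand for a pairing, because deviations within a group are not independent and carry the GC shifts of each library. With the replicate block Rab12 had -1.43 and an adjusted p of 0.921, 1 Rab gene and 226 genes in all passed, and 44 of the other 52 Rab genes had an interval above -1. Depth limits statements on the 11 tested Rab genes below 1 FPKM.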
